A study of Mus musculus with 9 samples.

Results

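The IFIT genes encode interferon-induced proteins with tetratricopeptide repeats, a family of cytoplasmic proteins that bind foreign RNA. The members described here are Ifit1, Ifit2 and Ifit3. They were taken by gene symbol in the platform annotation of the arrays, which gave 1 probe set for each, so that 3 of 22142 probe sets and 3 of 19494 genes with a symbol were chosen. Liver RNA of C57BL/6 mice was measured 15 days after intravenous injection in 9 arrays, with 3 mice in each of 3 groups. The Mock mice were not injected, and the AAV-IFNα mice received an AAV8 vector that encodes mouse IFNα1. The combination mice received AAV-IFNα together with AAV-L37pA, a vector for an apolipoprotein A-I mimetic peptide. The mice carried no engineered allele, were female by the study's methods and 6 weeks old by the labels, and both transgenes were driven by the elongation factor 1α promoter, which is active in many cell types. The arrays include no mice with AAV-L37pA by itself and none with a control vector, so that effects of transgene and vector cannot be told apart against Mock. The total vector load was also larger in the combination than with AAV-IFNα alone. Between the treated groups, effects of L37pA and of the added vector thus cannot be told apart either.

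Cells produce IFIT proteins when type I interferon binds its receptor and the factor ISGF3, a complex of STAT proteins with IRF9, binds the interferon-stimulated response element in front of their genes. Ifit1 binds capped RNA that lacks the ribose methylation of host messengers and blocks its translation. Ifit2 protects mice against several neurotropic viruses, and human IFIT3 holds a complex together in which IFIT1 binds RNA more firmly. The transcripts are low in a resting liver and are among the usual readouts of an interferon response.

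The RefSeq windows around the starts of Ifit1 and Ifit3 hold the core of the response element in pairs, and these stretches are shown because ISGF3 is known to bind this motif in front of interferon-stimulated genes. The motif searched was GAAA followed after any 2 bases by another GAAA, which reads as TTTC, any 2 bases and TTTC on the other strand, in windows of 300 bases from 250 bases before to 50 bases after each start (RefSeq, GRCm38.p6). It was found at least once in 3.44% of 32851 windows and at least 2 times in 0.225%. Each line gives 30 bases of the strand of the gene, with the match in capitals:
Ifit1, distal: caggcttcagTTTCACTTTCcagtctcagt
Ifit1, proximal: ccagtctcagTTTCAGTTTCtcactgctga
Ifit3, distal: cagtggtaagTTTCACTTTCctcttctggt
Ifit3, proximal: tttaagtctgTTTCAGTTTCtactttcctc
Ifit3b, distal: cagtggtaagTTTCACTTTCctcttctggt
Ifit3b, proximal: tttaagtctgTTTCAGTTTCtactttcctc
Ifit1bl1: actctgtaggTTTCATTTTCtgtaggttgg
Ifit1bl2, distal: tcagcagtgaGAAACTGAAActgagactgg
Ifit1bl2, proximal: actgagactgGAAAGTGAAActgaagcctg

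The matches of Ifit1 begin 104 and 85 bases before its start, and the 30-base stretches around them lie at chr19:34640775-34640804 and chr19:34640794-34640823 on the plus strand. Those of Ifit3 begin 156 and 122 bases before its start, with their stretches at chr19:34583363-34583392 and chr19:34583397-34583426, also on the plus strand. The letters of the Ifit3 stretches are the same as those of Ifit3b, a neighbouring copy of Ifit3. Those of Ifit1bl2 are the Ifit1 stretches read on the other strand, since Ifit1 and Ifit1bl2 start close to each other and point away from one another. The 2 windows listed for Ifit2 hold 0 matches, which says only that these letters are not in those windows. A match is a description of the sequence and was not tested for binding.

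The log2 values were those of the authors after RMA, which corrects the background of an array, normalizes the arrays to each other and summarises the probes of a transcript. Different probe sets bind with different strength, so that a level is compared here between groups and never between genes. A probe set was tested where its value was above 5 in at least 2 samples of 1 group, which 14715 probe sets were, and it counted as called where the limma p-value, adjusted by Benjamini and Hochberg, was under 0.05. Array medians lay between 5.78 and 5.83. Hepatocyte markers such as Alb and Ttr were far above 5 in all 9 arrays, with a mean log2 value over 7 markers of 12.65 to 12.78. Ifit1 and Ifit3 lay above 5 in every array. Ifit2 was above 5 in 1 of 3 Mock arrays and in all treated ones, so that it entered the test through the groups in which it was high.

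All 3 members rose strongly with AAV-IFNα, where 11.2% of the probe sets tested were called higher, 5.06% lower and 16.3% in either direction. Ifit1 had log2 values of 6.07, 6.14 and 5.98 in Mock and 9.77, 9.96 and 9.61 with AAV-IFNα. The lowest treated mouse lay 3.47 above the highest Mock mouse. The log2 fold change was 3.72, with a standard error of 0.16 (adjusted p = 6.0e-09), or 13.2-fold with a 95% interval of 10.3 to 16.8. Ifit3 had values of 7.68, 8.04 and 7.56 in Mock and 12.15, 12.21 and 11.60 with AAV-IFNα. It went up the most of the 3, by 4.23 (standard error 0.18, adjusted p = 5.9e-09), or 18.8-fold with an interval of 14.3 to 24.7, and ranked 14 among the rises of all 14715 probe sets. Ifit2 had values of 4.24, 5.20 and 4.39 in Mock and 8.02, 7.98 and 7.03 with AAV-IFNα. It also rose with no overlap between the groups, by 3.07 (standard error 0.28, adjusted p = 7.0e-06), or 8.39-fold with an interval of 5.50 to 12.8. AAV-IFNα replicate 3 was the lowest of its group for each of the members, by the widest margin for Ifit2, and Mock replicate 2 was the highest of its group for each. The arrays read whole liver, so that fewer cells of a type and less RNA per cell cannot be told apart. Beside these changes, the mean log2 value over 6 monocyte markers was 4.83 to 4.99 in Mock and 6.17 to 7.37 with AAV-IFNα, that of NK and T cell markers 4.86 to 5.05 and 5.91 to 6.38, and that of Kupffer cell markers 7.20 to 7.43 and 8.19 to 8.34. The part of these cells in the rise of the IFIT genes was not tested.

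In the combination all 3 members were also higher than in Mock, a direction in which 4.19% of the probe sets tested were called, beside 5.21% in either direction. Ifit1 had values of 9.99, 9.93 and 9.43 in the combination mice. Its log2 fold change over Mock was 3.72 (standard error 0.16, adjusted p = 1.4e-08), or 13.2-fold with an interval of 10.4 to 16.8. Ifit3 had values of 11.53, 11.75 and 11.42, a change of 3.81 (standard error 0.18, adjusted p = 3.6e-08) or 14.0-fold. Ifit1 and Ifit3 ranked 7 and 4 among all rises of this comparison. Ifit2 had values of 6.17, 6.62 and 6.67, all above the highest Mock mouse and all below the lowest AAV-IFNα mouse. It rose by 1.88 over Mock (standard error 0.28, adjusted p = 0.0014), or 3.67-fold with an interval of 2.40 to 5.60, and ranked 68. Combination replicate 3, the lowest of its group for Ifit1 and Ifit3, was the highest of its group for Ifit2, so that the order of the mice was not the same for the 3 transcripts. The mean log2 value of the Kupffer cell markers was 7.95 to 8.33 in the combination against 7.20 to 7.43 in Mock, that of the monocyte markers 5.70 to 5.84 against 4.83 to 4.99, and that of the NK and T cell markers 5.11 to 5.22 against 4.86 to 5.05, and their part in the rise was not tested.

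**Figure D1:**
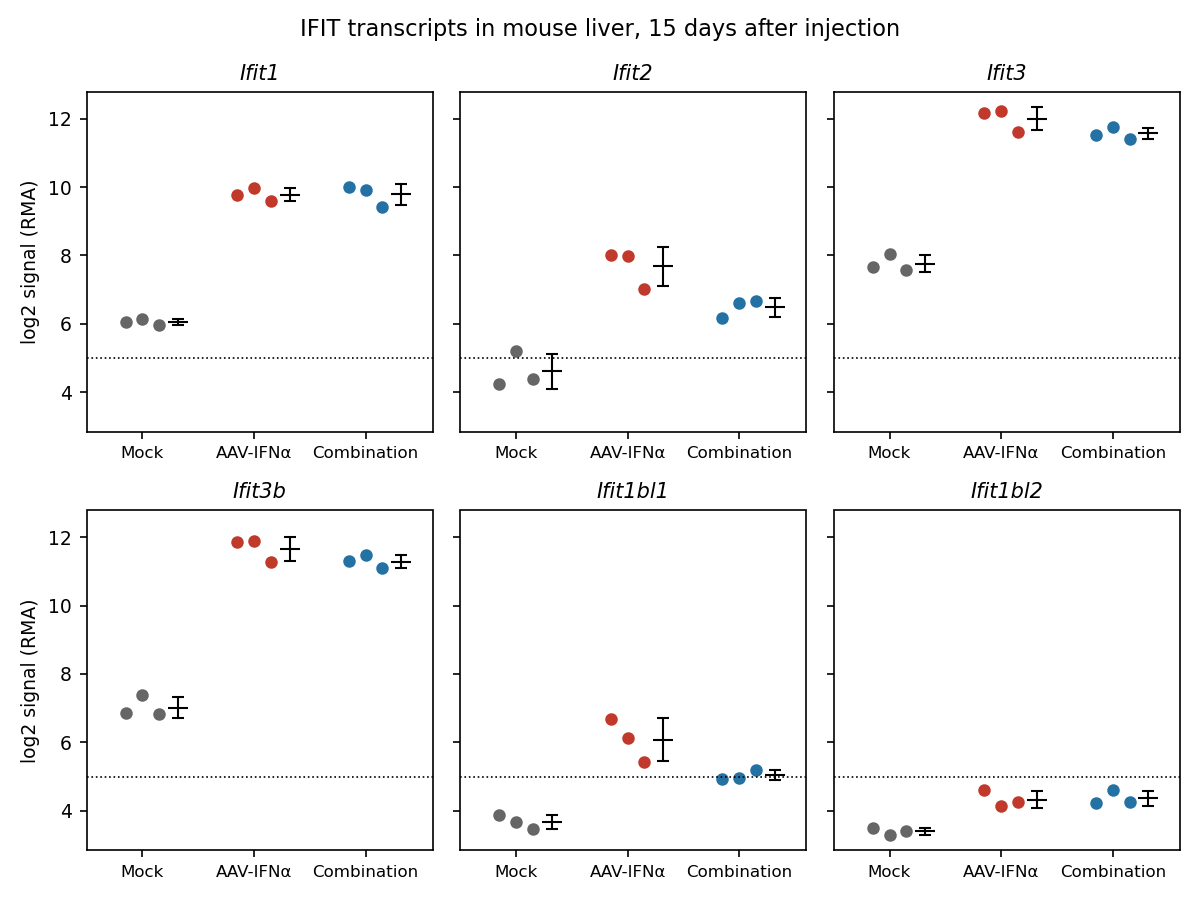
Log2 RMA signal (vertical axis) of the IFIT members and their paralogs in each of 9 liver arrays, by group, with replicates 1 to 3 from left to right; bars give the mean and SD of 3 arrays, and the dotted line marks the value of 5 used by the filter. Ifit1 reached about the same level in both treated groups, with means of 9.78 and 9.78, whereas the means of Ifit2 were 7.68 with AAV-IFNα and 6.49 in the combination.

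Between the treated groups, Ifit2 was lower in the combination, and neither Ifit1 nor Ifit3 passed the test. In this comparison 2.2% of the probe sets tested were called lower, 0.394% higher and 2.6% in either direction. Ifit2 changed by -1.19 from AAV-IFNα to the combination (standard error 0.28, 95% interval -1.80 to -0.58, adjusted p = 0.042, limma), which is 2.29-fold lower. The treated groups did not overlap, and the gap between them was 0.36. The call was close to the threshold, and it was not made without AAV-IFNα replicate 1 (-1.02, adjusted p = 0.22) or 2 (-1.04, adjusted p = 0.17), without combination replicate 1 (-1.03, adjusted p = 0.19), 2 (-1.26, adjusted p = 0.11) or 3 (-1.29, adjusted p = 0.079), or with a trended and robust prior (adjusted p = 0.071) or another quantile normalization (-1.13, adjusted p = 0.055). It was made without AAV-IFNα replicate 3 (-1.52, adjusted p = 0.0056). Ifit1 differed by 0.00 (standard error 0.16, adjusted p = 1.0), and the 95% interval from -0.34 to 0.35 leaves room for a level from 0.788-fold to 1.28-fold of that with AAV-IFNα. The Ifit1 values of the treated groups overlapped, and the highest mouse of all, at 9.99, was a combination mouse. Ifit3 differed by -0.42 (standard error 0.18, adjusted p = 0.37), with an unadjusted interval of -0.82 to -0.03 and overlapping groups, so that a level down to 0.567-fold is within the interval.

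Markers of monocytes and of NK and T cells differed between the treated groups in the direction of Ifit2. Of 5 monocyte markers tested, 3 were called lower in the combination, beside 2.2% of all probe sets. Ccr2 (-1.24) and F13a1 (0.13) were not called, and the mean log2 value over 6 markers was 5.70 to 5.84 there against 6.17 to 7.37 with AAV-IFNα. Of 6 NK and T cell markers tested, 3 were called lower, and the mean over 8 markers was 5.11 to 5.22 against 5.91 to 6.38. AAV-IFNα replicate 3, the mouse with the lowest Ifit2 of its group, also had its lowest monocyte mean, 6.17. The lowest NK and T cell mean of that group was that of replicate 2. In the combination the order was the reverse, since replicate 1 had the lowest Ifit2, 6.17, with the highest monocyte mean, 5.84, and the lowest NK and T cell mean, 5.11. Among these markers Chil3, Klrb1c and Cd3e did not pass the filter on low values. Only 1 of the 6 monocyte markers and 4 of the 8 NK and T cell markers were above 5 in all 9 arrays. A marker low in the other groups can enter the test through AAV-IFNα alone, which favours a call of lower in the combination. The share of all probe sets is thus not a like background for these counts, which are a description. Of 7 Kupffer cell markers tested, 1 was called lower in the combination, with a median difference of -0.34 over the 7. Their mean log2 values overlapped, at 8.19 to 8.34 with AAV-IFNα and 7.95 to 8.33 in the combination. The hepatocyte markers had a mean log2 value of 12.65 to 12.69 with AAV-IFNα and 12.74 to 12.75 in the combination. The part of these cells in the difference of Ifit2 was not tested.

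**Figure D2:**
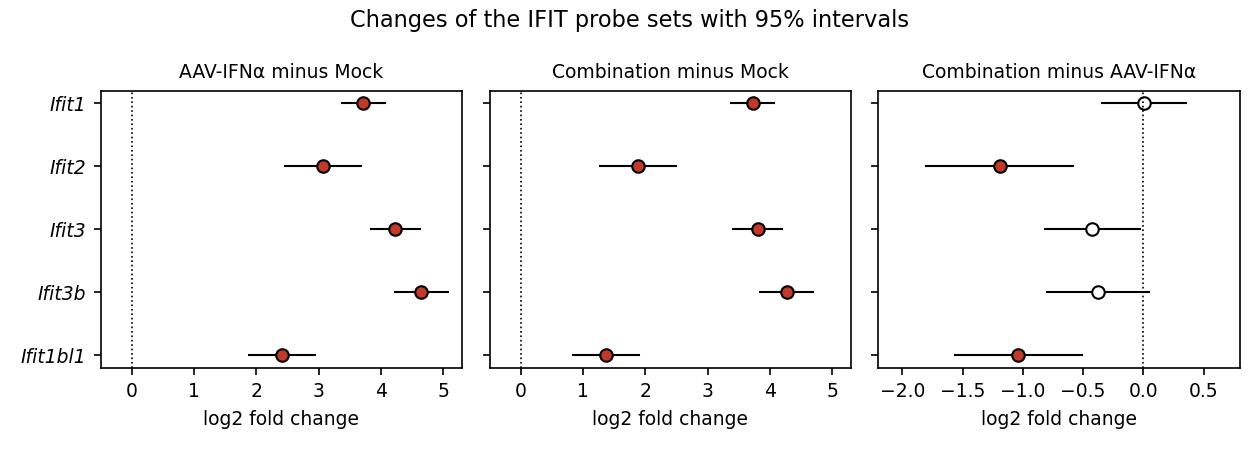
Log2 fold change (horizontal axis) of 5 IFIT probe sets in each comparison, with 95% intervals from limma on 9 arrays; filled points passed the test at an adjusted p under 0.05 and open points did not. In the right panel Ifit2 at -1.19 and Ifit1bl1 at -1.04 are filled, while Ifit1 lies at 0.00.

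The members were also set against each other within each array, in 9 comparisons of which none passed the test. The log2 difference Ifit1 minus Ifit2 was 1.20 larger in the combination than after AAV-IFNα alone, a 2.29-fold shift in the ratio of their signals, and the 2 groups of 3 arrays did not overlap. The difference Ifit2 minus Ifit3 was 0.77 smaller in the combination, again with no overlap, and Ifit1 minus Ifit3 was 0.43 larger with no overlap. Against Mock, Ifit2 rose less than Ifit3 by 1.16 on the log2 scale with AAV-IFNα and by 1.93 in the combination, with no overlap in either comparison. Ifit1 rose less than Ifit3 by 0.51 with AAV-IFNα, where the arrays did not overlap, and by 0.08 in the combination, where they did (exact permutation test, p = 0.70). Ifit2 rose less than Ifit1 by 1.85 in the combination, with no overlap, and by 0.65 with AAV-IFNα, where the arrays overlapped (exact permutation test, p = 0.20). For 7 of the 9 comparisons the exact two-sided permutation test gave p = 0.10, the smallest that 3 against 3 arrays allow, and p = 0.13 after Benjamini-Hochberg adjustment over the 9.

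**Figure D3:**
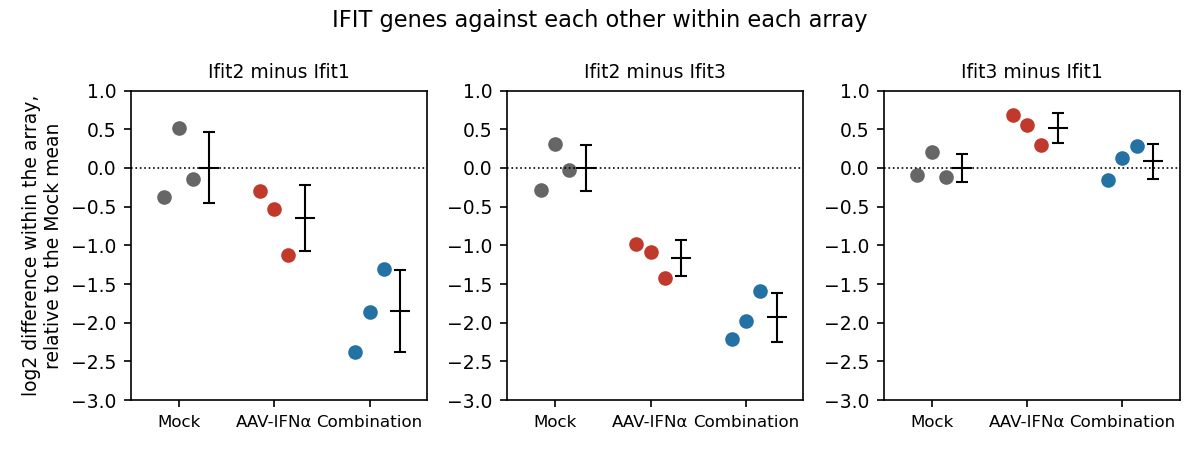
Log2 difference between 2 IFIT genes within the same array (vertical axis, relative to the Mock mean), by group, with replicates 1 to 3 from left to right; bars give the mean and SD of 3 arrays. The left panel plots Ifit2 minus Ifit1, the reverse of the subtraction in the text, so that the combination arrays lie below those of AAV-IFNα, with group means that differ by 1.20.

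Among the other IFIT genes of the mouse cluster, Ifit3b and Ifit1bl1 rose in both treated groups, and Ifit1bl1 was lower in the combination of these groups. In the RefSeq annotation of chromosome 19 the order is Ifit2, Ifit3, Ifit1bl1, Ifit3b, Ifit1bl2 and Ifit1. Ifit3b, the copy of Ifit3, had values of 6.85, 7.38 and 6.83 in Mock, 11.85, 11.89 and 11.26 with AAV-IFNα and 11.31, 11.47 and 11.08 in the combination. Its rises over Mock were 4.64 after AAV-IFNα (adjusted p = 5.9e-09) and 4.27 in the combination, where it ranked 2 among all rises (adjusted p = 2.6e-08). The treated groups differed by -0.38 and were not called (adjusted p = 0.51). Ifit3b and Ifit3 are close copies, and how far the probes of one read the other was not tested, so that their values are not independent measurements. Ifit1bl1, a paralog of Ifit1, had values of 3.87, 3.67 and 3.46 in Mock, 6.69, 6.12 and 5.43 with AAV-IFNα and 4.94, 4.97 and 5.21 in the combination. It entered the test through AAV-IFNα alone, with all 3 of those arrays above 5. It rose by 2.41 and 1.37 over Mock (adjusted p = 1.6e-05 and 0.0051) and the combination differed from AAV-IFNα by -1.04 (standard error 0.24, adjusted p = 0.040). That last call was made in 1 of 6 fits that left out a mouse of these groups, the one without AAV-IFNα replicate 3, and not in the other 5, with adjusted p-values up to 0.16, and it was not made with a fit of only the 2 groups or with another quantile normalization. Ifit1bl2 was below 5 in all 9 arrays and was not tested. Its values were 3.50, 3.30 and 3.41 in Mock, 4.60, 4.13 and 4.27 with AAV-IFNα and 4.22, 4.61 and 4.26 in the combination. The group means of this low signal were 3.41, 4.33 and 4.36 in that order, and they are given with no test.

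Genes on either side of the IFIT cluster had log2 fold changes over Mock between -0.78 and 1.23, less in size than those of Ifit1, Ifit2 and Ifit3. Of the nearest measured neighbours, Lipa, the lysosomal acid lipase, had log2 means of 10.07 in Mock, 10.28 with AAV-IFNα and 10.19 in the combination and was called in none of the comparisons. Ch25h, which makes the antiviral sterol 25-hydroxycholesterol, rose by 0.79 with AAV-IFNα (adjusted p = 0.011, but 0.053 without AAV-IFNα replicate 2) and was lower in the combination by -0.97 (adjusted p = 0.013, lost without AAV-IFNα replicate 1 or 2 or combination replicate 2). It was above 5 in 0 of 3 Mock, 3 of 3 AAV-IFNα and 0 of 3 combination arrays, so that it entered the test only through the group in which it was high. The death receptor gene Fas rose by 1.23 and 0.97 over Mock (adjusted p = 0.00014 and 0.0027). On the other side, Slc16a12, a membrane transporter, was called in none of the comparisons, Pank1, an enzyme of coenzyme A synthesis, fell by 0.78 with AAV-IFNα (adjusted p = 0.0024), and Kif20b, a kinesin, rose by 0.96 with AAV-IFNα (adjusted p = 0.013, but 0.054 without AAV-IFNα replicate 1).

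The genes whose values over the 9 arrays lay closest to those of each IFIT gene were other interferon-induced genes, apart from Gsta2. Closeness was the root-mean-square distance on the log2 scale after the Mock mean of each gene was subtracted, so that it is a description of these arrays. For Ifit3 the closest were Trim30a at 0.15, Oasl2 at 0.23 and Gvin1 at 0.26. Trim30a had log2 means of 5.32, 9.61 and 8.99 in Mock, AAV-IFNα and the combination. For Ifit1 they were farther away, with Gbp3, a guanylate-binding protein, at 0.40, Rsad2, which encodes the antiviral enzyme viperin, at 0.41 and the glutathione transferase Gsta2 at 0.42. Ifit3 itself lay at 0.34 from Ifit1. For Ifit2 the closest were Cxcl10, a chemokine for activated T cells, at 0.29, Gbp7, a guanylate-binding protein, at 0.31 and Ifi207 at 0.31, while Ifit1 and Ifit3 lay at 1.20 and 1.32. Cxcl10 had log2 means of 5.78, 8.93 and 7.49 in the order Mock, AAV-IFNα and combination, and the differences of Cxcl10, Gbp7 and Ifi207 between the treated groups were -1.44, -0.84 and -0.97. These values are part of the closeness by which the genes were chosen, and they are given with no test. The median distance over all genes compared was 3.05 for Ifit1, 2.12 for Ifit2 and 3.30 for Ifit3.

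Upstream of the IFIT genes, Ifna1 is the gene of the IFNα subtype that the vector encodes by the study's methods. Its probe set was raised by 1.06 and 1.51 in the AAV-IFNα and combination groups (limma, adjusted p = 0.0012 and 0.00016). These groups differed by 0.46 (adjusted p = 0.29). The parts of the vector's transgene and of the mouse's own gene in this signal were not tested. Ifna2, Ifnb1, Ifnl2 and Ifnl3 were called in none of the comparisons, with log2 fold changes between -0.33 and 0.07, and Ifna4, Ifnk and Ifng did not pass the filter. Of the 6 genes of the receptor and ISGF3 that were measured, 4 rose with AAV-IFNα and 2 in the combination, beside 11.2% and 4.19% of all probe sets. Their medians were 0.52 and 0.39, beside -0.02 and 0.00 over all probe sets tested. Irf9, the DNA-binding part of ISGF3, rose by 0.95 and 0.98 (adjusted p = 0.00031 and 0.00061), and the treated means lay 0.03 apart (adjusted p = 0.97). Stat2 rose by 1.02 and 0.77 (adjusted p = 0.00053 and 0.012), the latter not without combination replicate 2 (adjusted p = 0.058). The receptor chain genes Ifnar1 and Ifnar2 rose with AAV-IFNα by 0.48 and 0.56 (adjusted p = 0.027 and 0.0099), and the call of Ifnar1 was made in 2 of 6 fits without 1 mouse. The kinase genes Jak1 and Tyk2 had values of 0.37 and 0.40 (adjusted p = 0.057 and 0.078). By limma 0 of the 6 genes were called from AAV-IFNα to the combination, beside 2.6% of all probe sets called in either direction. Their median was -0.07, and 0 had a p under 0.05 before adjustment.

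Regulators of the interferon response included some that differed between the treated groups and others for which no difference was called. Of 10 genes, 6 rose with AAV-IFNα and 3 in the combination, beside 11.2% and 4.19% of all probe sets. Between the treated groups 3 of the 10 were called lower in the combination, beside 2.2% of all probe sets. Irf7, the factor that amplifies type I interferon, rose by 3.17 and 3.04 over Mock (adjusted p = 5.0e-09 and 1.3e-08). Its difference between the treated groups was -0.12 (adjusted p = 0.82). Usp18, which dampens receptor signalling, differed by -0.21 between them (adjusted p = 0.72). Irf1, a factor that responds strongly to interferon-γ, had log2 means of 8.30 in Mock, 10.06 with AAV-IFNα and 8.97 in the combination, and its difference of -1.09 between the treated groups was called (adjusted p = 0.0039). Socs1, an inhibitor of JAK kinases, was lower in the combination by -2.23 (adjusted p = 0.00071), to a mean of 4.74 under the filter value. It was above 5 in 0 of 3 Mock, 3 of 3 AAV-IFNα and 1 of 3 combination arrays, so that AAV-IFNα alone brought it into the test.

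Sensors of nucleic acids and other antiviral effectors rose along with the IFIT genes. Of 12 sensing genes, 11 rose with AAV-IFNα and 8 in the combination, with medians of 1.87 and 1.11 beside -0.02 and 0.00 over all probe sets tested, of which 11.2% and 4.19% rose. Dhx58 and Ddx58, which encode the RNA helicases LGP2 and RIG-I, rose by 2.26 and 1.89 with AAV-IFNα (adjusted p = 1.1e-07 and 3.0e-06) and were not called between the treated groups (-0.36 and -0.11, adjusted p = 0.24 and 0.88). Zbp1, a sensor of Z-form nucleic acid, and Sting1, the adaptor of DNA sensing, were lower in the combination by -0.73 and -1.59 (adjusted p = 0.019 and 0.0018), the call of Zbp1 being made in 2 of 6 fits without 1 mouse. Sting1 was above 5 in 0 of 3 Mock, 3 of 3 AAV-IFNα and 1 of 3 combination arrays and entered the test only through AAV-IFNα. Of the 12 sensing genes, 2 were called lower between the treated groups, beside 2.2% of all probe sets, and 7 had a p under 0.05 before adjustment. All 17 antiviral effectors tested rose in both treated groups, with medians of 1.91 and 1.44. Between these groups 1 effector was called, with the lower level in the combination, beside the same 2.2% of all probe sets. Before adjustment 9 of the 17 had a p under 0.05. The called gene was Mx1, an antiviral GTPase (-1.03, adjusted p = 0.032, made in 2 of 6 fits without 1 mouse). Oas1a, which makes the activator of RNase L, and Oasl2 had differences of -0.35 and -0.70 between the treated groups that did not pass the test (adjusted p = 0.21 and 0.11), nor did that of Isg15 (-0.38, adjusted p = 0.37).

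Ifit1 binds at the capped end of RNA. The genes that make, remove or read the cap and were called with AAV-IFNα had log2 fold changes between -0.53 and 1.17. Of 9 genes of cap synthesis and removal, 2 rose and 1 fell with AAV-IFNα, with a median of 0.17, beside 16.3% of all probe sets called in either direction. In the combination 2 of the 9 rose, with a median of 0.15, beside 4.19% of all probe sets called higher. Cmtr1, which adds the ribose methylation that keeps host RNA from Ifit1, changed by 0.56 and 0.58 over Mock (adjusted p = 0.018 and 0.035), and these calls were made in 4 of 6 and 1 of 6 fits without 1 mouse. The decapping enzyme gene Dcp2 rose by 1.17 and 0.88 (adjusted p = 0.00017 and 0.0044). Cmtr2, which methylates the next nucleotide, changed by -0.42 with AAV-IFNα (adjusted p = 0.037), a call that was made in 0 of 6 fits without 1 mouse. Of 15 genes of cap-dependent initiation, which include the eIF3 subunits that IFIT proteins bind, 0 rose and 1 fell with AAV-IFNα by limma, with a median of 0.01, and 2 had a p under 0.05 before adjustment. That gene was Eif4b, a helper of the initiation helicase (-0.53, adjusted p = 0.030, made in 2 of 6 fits without 1 mouse). In the combination 0 of the 15 were called by limma against Mock or against AAV-IFNα, beside 5.21% and 2.6% of all probe sets called in either direction. Before adjustment 1 had a p under 0.05 in each of these comparisons.

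Genes known to be inducible by interferon-γ were listed here to set Ifit1 and Ifit2 against them. In the combination 11 of 11 were called lower than after AAV-IFNα, beside 2.2% of all probe sets. Their median was -1.44, beside 0.01 over all probe sets tested. All 11 rose over Mock with AAV-IFNα, with a median of 3.27, and 10 did in the combination, with a median of 1.62. Over all probe sets tested, 11.2% and 4.19% rose. Earlier results of these arrays were known when these genes were listed, so that the counts and the range of their differences are a description. The paper also reported Cxcl10 and Gbp2, which are among them, as lower in the combination by RT-qPCR. Since all 11 rose with AAV-IFNα, responses to interferon-γ and to IFNα cannot be told apart by this list. Cxcl10 and Gbp3, named above as closest to Ifit2 and Ifit1, are among them. Gbp2, a guanylate-binding protein, changed by -2.39 (adjusted p = 7.5e-05), Tgtp2 and Igtp, GTPases that act on pathogen vacuoles, by -1.45 and -1.23 (adjusted p = 0.00026 and 0.00065), and Gbp3 by -0.67 (adjusted p = 0.023, made in 1 of 6 fits without 1 mouse). The difference of Ifit2, -1.19, lay within the range of these genes, and those of Ifit3 and Ifit1, -0.42 and 0.00, lay outside it. Whether the IFIT genes differ from this list was not tested.

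**Figure D4:**
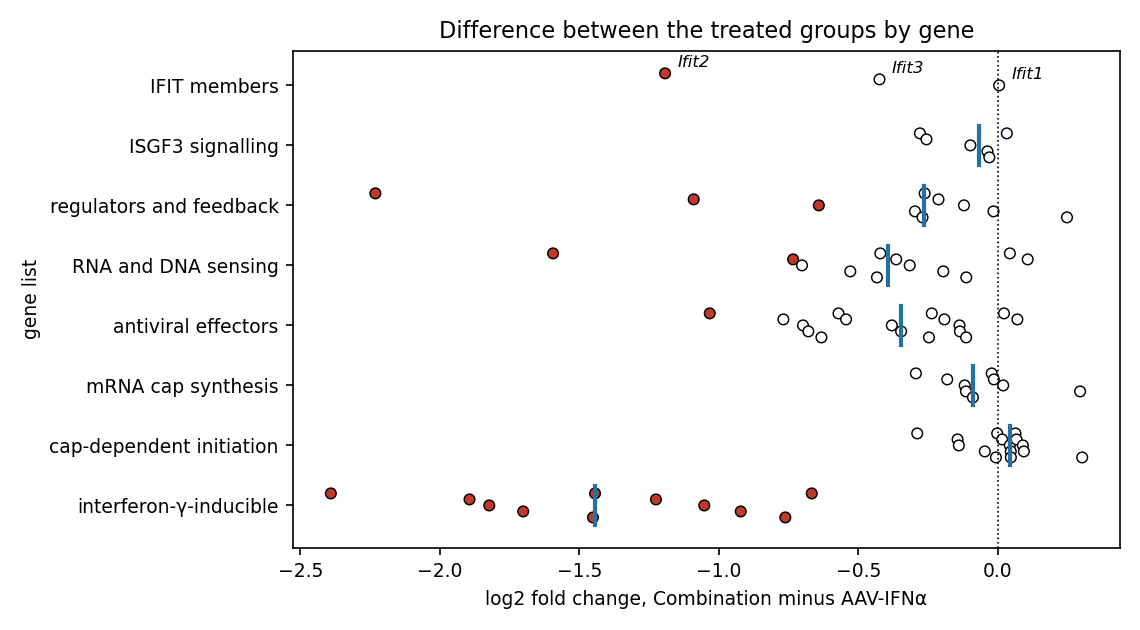
Log2 fold change from AAV-IFNα to the combination (horizontal axis) for the IFIT members and for each tested gene of 7 lists; filled points passed limma's test at an adjusted p under 0.05, open points did not, and the blue bar is the median of a list. Ifit1 lies at 0.00 and Ifit2 at -1.19, beside a median of -0.35 for the antiviral effectors and -1.44 for the interferon-γ-inducible genes.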

How the data were processed

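Values were used as deposited, on the log2 scale, after the authors had run the RMA algorithm (version not given in the sources used here), which corrected the background, normalized the arrays and summarised probe sets. The study's methods name the Clariom S mouse array, whereas GEO's design text gives a different Affymetrix array. Groups and replicate numbers came from the sample titles, and 0 columns had no sample. Probe sets were named through the platform annotation, in which 19527 of 22142 carry 1 symbol and 2615 are unnamed here.

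Probe sets above 5 in at least 2 samples of 1 group entered limma (version 3.58.1, R version 4.3.3), two-sided, in 1 fit of 3 group means over 9 arrays with 6 residual and 6.91 prior degrees of freedom. The p-values were adjusted by Benjamini-Hochberg over 14715 probe sets, and 95% intervals are unadjusted. Depth does not apply to arrays, whose number limits the precision. The fit was tested on simulated arrays with known changes. Pairs of members were compared by exact permutation tests over arrays (scipy 1.17.1), and figures were drawn with matplotlib 3.10.9.

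The genes named are the members, their paralogs, the nearest measured neighbours, the 3 genes closest to each member, all ligand and ISGF3 genes, and in the other lists the 3 with the smallest p for AAV-IFNα against Mock and the 1 for the combination against AAV-IFNα. Cell type markers illustrate the lists of cells. The members and lists were chosen with earlier results of these data known. As alternatives, each array was left out in turn, arrays were weighted, centred on their medians or quantile-normalized once more, the filter was dropped or raised to 6, the replicate number entered as a block, the prior was made trended and robust, and the fit was restricted to the pair of groups at issue. No member had a further probe set to try. For the other named genes the same alternatives were added after seeing the data. RT-qPCR, proteomic and histological data were not analysed here.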

Additional observations from a re-analysis of the deposited data

How the results depend on the processing

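Against Mock, all 3 members kept their direction and their call under all 14 alternatives in both comparisons. Leaving out 1 mouse gave 3.63 to 3.81 for Ifit1, 2.88 to 3.39 for Ifit2 and 4.12 to 4.42 for Ifit3 with AAV-IFNα, and 3.62 to 3.90, 1.69 to 2.17 and 3.71 to 3.95 in the combination. From AAV-IFNα to the combination, Ifit2 was -1.19 with a trended and robust prior (adjusted p = 0.071) and -1.13 after another quantile normalization (adjusted p = 0.055), where it was not called, and -1.52 to -1.02 without 1 mouse, called only without AAV-IFNα replicate 3. Ifit1, near 0, was -0.0349 with array weights and -0.10 to 0.18 without 1 mouse. Ifit3 stayed uncalled, at -0.62 to -0.31. The number of probe sets called was 2400 with AAV-IFNα against Mock (1495 to 2337 without 1 mouse), 767 for the combination against Mock (322 to 817 without 1 mouse, 1176 with array weights) and 382 between the treated groups (154 to 496 without 1 mouse). With AAV-IFNα against Mock, 1655 rose and 745 fell, and 1399 and 1161 after another quantile normalization. Correlations of same-numbered arrays, after group means were removed, were -0.13 to 0.22, and 3 of 9 were over 0.1. They were not set against those of differently numbered arrays, so that a pairing by number was not decided. The replicate number as a block gave 2389, 832 and 430 calls and changed no call of a member (Ifit2 between the treated groups, limma, adjusted p = 0.019). Of 82 calls of the other named genes, 66 held under every alternative.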
